A study of Mus musculus with 12 samples.

Results

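Polycomb group proteins are subunits of a pair of chromatin complexes that keep developmental genes silent. PRC2 places methyl groups on histone H3 at its target genes, and PRC1 binds that mark and attaches ubiquitin to histone H2A. In fibroblasts the complexes are best known for silencing the Cdkn2a locus, whose products stop the cell cycle, and for holding Hox genes in the pattern set by the position of the cell in the embryo. The genes followed here were 9 subunits chosen by name: Ezh2, Eed, Suz12 and Jarid2 of PRC2, and Bmi1, Ring1, Rnf2, Cbx2 and Cbx7 of PRC1. They are 9 of the 18193 genes named on the array, and 25 probe sets (groups of probes that report 1 transcript) carry their symbols. Where a gene had several, the one with the largest average over the arrays stood for it.

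RNA came from mouse embryonic fibroblasts (MEFs) that were growing exponentially and untreated, with 3 arrays in each of 4 groups and 12 arrays in all. The genotypes were wild type (WT), deletion of Rb1 (Rb1KO), deletion of Rb1, p107 and p130 (TKO), and the TKO deletions together with the allele RasG12D (TKO-Ras). Rb1, p107 (Rbl1) and p130 (Rbl2) encode the pocket proteins, which bind E2F transcription factors and restrain the genes of DNA replication. Titles mark the arrays as biological replicates without naming embryos or cultures, so that p-values measure the spread between these RNA samples. The methods describe only the WT and TKO arrays and say that the TKO MEFs were originally obtained from another laboratory. The TKO MEFs are described as coming from mice that lack the 3 genes. How the Ras allele was introduced is not given in the sources used here, nor from how many embryos each group came, nor whether the groups share a strain or passage number. Such differences cannot be told apart from genotype.

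Values are deposited log2 levels from the array normalization RMA, and a difference of 1 is 2-fold. Groups were compared with limma on all 12 arrays, with p-values adjusted over 45037 probe sets and an adjusted p under 0.05 called. A level of 5.13 served as background. The arrays labelled Rb1KO stood apart from their label in Rbl2, which was at background there, from 3.80 to 4.47, against 7.54 to 7.90 in WT, while Rb1 was at 7.51 to 7.74 against 8.31 to 8.70. In TKO, Rbl1 was at background, whereas Rb1 read 6.97 to 7.43 and Rbl2 5.27 to 5.71, and the deleted parts of the genes are not given in the labels. WT replicate 3 correlated least with its group (mean r = 0.974 across probe sets), and results that rest on it are given with and without it. Of 12 fibroblast markers, 0 were at background in WT and Rb1KO, 1 in TKO (the surface protein Thy1) and 2 in TKO-Ras, and their summed log2 level was 16.81 to 17.13 in WT, 16.16 to 16.27 in Rb1KO, 16.39 to 16.49 in TKO and 16.06 to 16.14 in TKO-Ras. The part of this shift in the results below was not tested. In RNA from whole cultures, fewer cells of a type and less RNA per cell cannot be told apart.

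The core of PRC2 was higher in all 3 mutant groups than in WT. Ezh2, which encodes the methyltransferase, Suz12, which encodes the scaffold that holds the enzyme together, and Eed, whose product binds the methyl mark, each rose in Rb1KO, TKO and TKO-Ras MEFs. Ezh2 and Suz12 rose by more than 2-fold in each mutant group, and Eed by 1.56-fold to 1.67-fold. Among the PRC1 subunits, Bmi1, Ring1 and Rnf2 passed in none of the 5 comparisons on all arrays, and the chromodomain genes Cbx2 and Cbx7 passed in some.

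The sequences around the start sites of these 3 PRC2 genes are shown because the genes moved together and because pocket proteins act through E2F. They are windows of 300 bases from RefSeq (build GRCm38.p6) whose last 50 bases follow the start, written in the direction of the gene, and capitals mark a match to an E2F-type word. The words searched on both strands were TTTCCCGC, TTTGGCGC, TTTCGCGC and TTTGCCGC.
Ezh2, chr6:47594981-47595280, minus strand: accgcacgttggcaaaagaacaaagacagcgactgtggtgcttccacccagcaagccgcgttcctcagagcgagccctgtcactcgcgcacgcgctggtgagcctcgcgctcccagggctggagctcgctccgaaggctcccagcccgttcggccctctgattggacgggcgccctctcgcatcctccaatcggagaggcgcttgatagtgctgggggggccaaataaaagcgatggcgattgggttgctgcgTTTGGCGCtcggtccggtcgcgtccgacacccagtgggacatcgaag
Suz12, chr11:79992856-79993155, plus strand: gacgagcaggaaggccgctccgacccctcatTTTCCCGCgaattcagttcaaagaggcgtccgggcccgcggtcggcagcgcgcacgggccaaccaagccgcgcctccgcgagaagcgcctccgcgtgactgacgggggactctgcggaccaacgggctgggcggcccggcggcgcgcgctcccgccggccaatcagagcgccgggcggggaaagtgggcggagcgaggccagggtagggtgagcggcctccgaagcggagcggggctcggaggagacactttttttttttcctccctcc
Eed, chr7:89980927-89981226, minus strand: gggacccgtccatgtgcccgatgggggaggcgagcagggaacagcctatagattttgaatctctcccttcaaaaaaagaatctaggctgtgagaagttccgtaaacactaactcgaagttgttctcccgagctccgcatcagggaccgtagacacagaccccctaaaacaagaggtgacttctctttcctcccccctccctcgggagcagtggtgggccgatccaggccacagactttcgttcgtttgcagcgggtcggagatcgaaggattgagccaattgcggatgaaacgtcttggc

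The Ezh2 match lay at bases 254 to 261 of its window, just after the start site, and the Suz12 match at bases 32 to 39. Of the 8 members with such a window (9 windows, Cbx2 having none here), Ezh2 and Suz12 held a match and Eed, Jarid2, Bmi1, Ring1, Rnf2 and Cbx7 did not. Over all promoters of this length, 2.26% of 32851 windows and 2.6% of 27025 genes held one. The cell cycle word TTTGAA, a core of the element called CHR, was found in the windows of Eed, Suz12 and Cbx7, against 17.9% of all windows. A match is a run of letters and not evidence of binding, and a window without one may hold other E2F sites.

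Ezh2 read 9.58, 9.65 and 9.35 on the WT arrays and 10.88, 11.14 and 10.86 on the Rb1KO arrays. The TKO arrays read 10.87, 10.75 and 10.75, and the TKO-Ras arrays 10.60, 10.92 and 10.59. Every mutant array was above every WT array, and the mutant groups overlapped one another. The log2 fold change against WT was 1.44 in Rb1KO (95% confidence interval 1.16 to 1.71, adjusted p = 1.58e-05), 1.27 in TKO (0.99 to 1.54, adjusted p = 4.49e-05) and 1.18 in TKO-Ras (0.90 to 1.45, adjusted p = 4.23e-05), all from limma. In fold terms Ezh2 was 2.71 times, 2.41 times and 2.27 times its WT level. These comparisons share the WT arrays and are not independent of each other.

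Suz12 read 10.30, 10.24 and 9.75 in WT and 11.42, 11.24 and 11.28 in Rb1KO. It read 11.27, 11.10 and 11.41 in TKO and 11.34, 11.38 and 11.27 in TKO-Ras. The lowest mutant array was thus above the highest WT array, and WT replicate 3 was the lowest of the 12. The log2 fold change was 1.22 in Rb1KO (0.90 to 1.53, adjusted p = 0.000113 by limma), 1.16 in TKO (0.85 to 1.48, adjusted p = 0.000188) and 1.23 in TKO-Ras (0.92 to 1.54, adjusted p = 7.85e-05). Suz12 has 6 probe sets, all above background on every array, and all 6 rose in each of the 3 comparisons, where 12.5% (Rb1KO), 10.5% (TKO) and 15.5% (TKO-Ras) of all probe sets were called higher. Their log2 fold changes ran from 0.76 to 1.57 in Rb1KO, from 0.60 to 1.35 in TKO and from 0.72 to 1.46 in TKO-Ras.

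Eed read 10.23, 10.42 and 9.64 in WT, 10.71, 10.91 and 10.69 in Rb1KO, 10.79, 10.82 and 10.61 in TKO, and 10.77, 10.87 and 10.88 in TKO-Ras. The groups did not overlap with WT, although the WT arrays spread over a wider range than any mutant group because replicate 3 was low. The log2 fold change was 0.67 in Rb1KO (adjusted p = 0.0141), 0.64 in TKO (adjusted p = 0.0202) and 0.74 in TKO-Ras (adjusted p = 0.0069), by limma. Without WT replicate 3 it was 0.44, 0.41 and 0.51 and still passed in all 3 groups, with Ezh2 at 1.35, 1.18 and 1.09 and Suz12 at 1.04, 0.99 and 1.06.

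**Figure D1:**
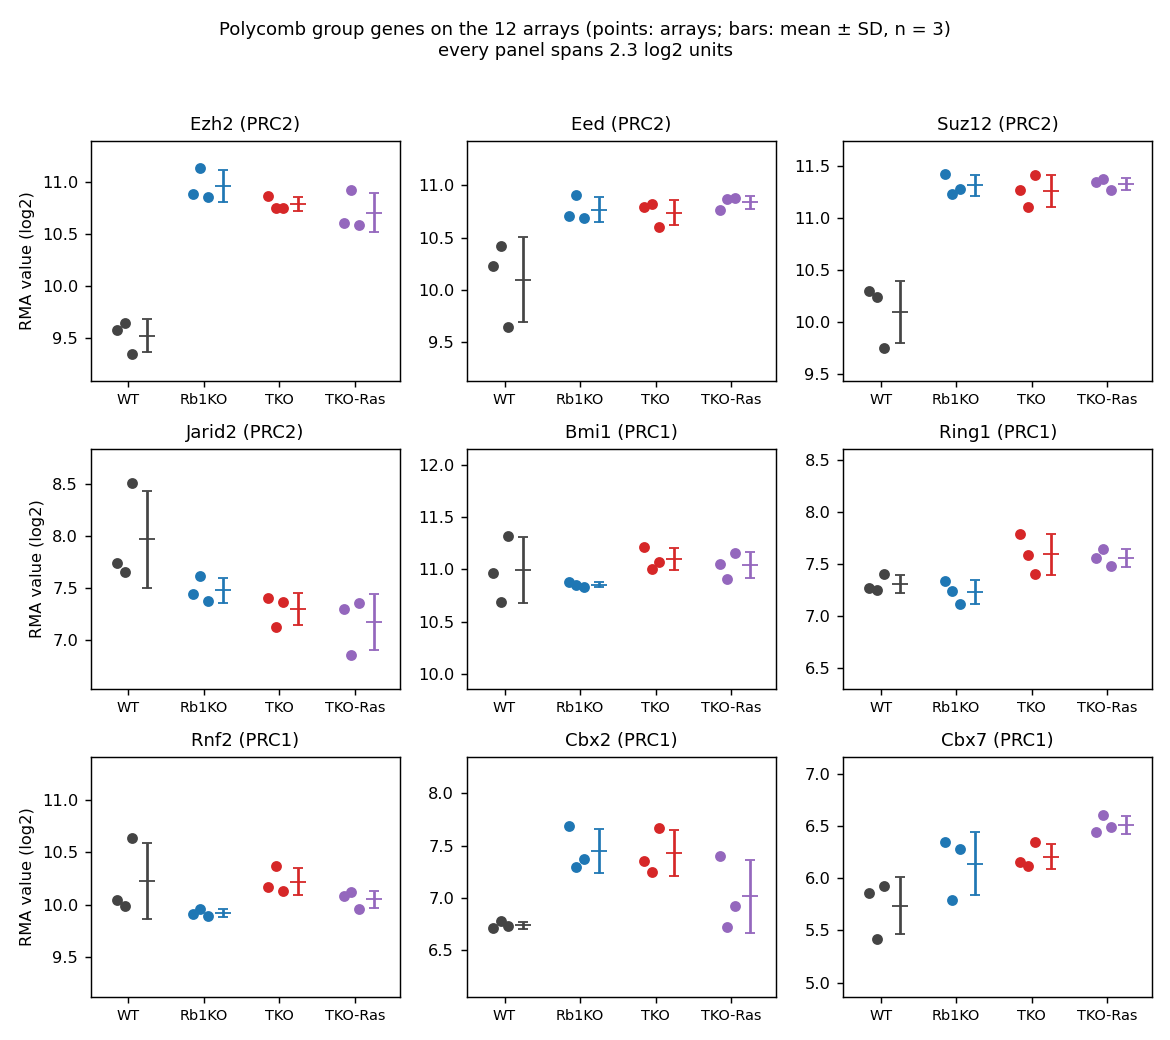
Deposited log2 level of each of the 9 genes (vertical axis, 1 panel per gene, every panel spanning the same number of log2 units) on each array of the 4 groups, with the mean ± SD of 3 arrays beside the points. Ezh2, Suz12 and Eed lie lowest in WT, where Ezh2 reads 9.35 to 9.65 against 10.59 to 11.14 on the mutant arrays, while Bmi1 and Rnf2 overlap between WT and TKO.

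Jarid2, an accessory subunit that helps bring PRC2 to its targets, did not follow the core subunits. It read 7.74, 7.66 and 8.50 in WT, 7.44, 7.61 and 7.38 in Rb1KO, 7.40, 7.12 and 7.37 in TKO, and 7.30, 6.86 and 7.36 in TKO-Ras. WT replicate 3 was the highest array, and every mutant array was below every WT array. It fell by 0.67 on the log2 scale in TKO (interval -1.13 to -0.21, adjusted p = 0.0454 by limma) and by 0.79 in TKO-Ras (adjusted p = 0.0156), and in Rb1KO the difference was -0.49 (adjusted p = 0.127). Without WT replicate 3 the TKO difference was -0.40 and no longer passed (adjusted p = 0.1), while that of TKO-Ras was -0.52 (adjusted p = 0.0276). Leaving out any 1 of the TKO arrays also ended the call in TKO. All 3 Jarid2 probe sets were lower than WT in the 3 mutant groups, and the one with the highest mean was the only one called.

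Among the PRC1 subunits, Cbx2, whose chromodomain reads the mark of PRC2, was at 6.71, 6.77 and 6.73 in WT. It read 7.69, 7.29 and 7.37 in Rb1KO and 7.36, 7.25 and 7.67 in TKO, above all WT arrays, and 7.40, 6.72 and 6.92 in TKO-Ras, which overlapped with WT. It rose by 0.71 in Rb1KO (0.33 to 1.10, adjusted p = 0.0123 by limma) and by 0.69 in TKO (0.30 to 1.08, adjusted p = 0.0172), and the difference in TKO-Ras was 0.28 (-0.11 to 0.66, adjusted p = 0.266). A second Cbx2 probe set was at background on every array, so that its calls in Rb1KO (0.47) and TKO-Ras (0.42) compare values within the background.

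Cbx7, a related chromodomain subunit known for silencing Cdkn2a, read 5.86, 5.42 and 5.93 in WT, not far above background. It read 6.35, 5.80 and 6.28 in Rb1KO, 6.15, 6.12 and 6.35 in TKO, and 6.44, 6.61 and 6.49 in TKO-Ras. The TKO and TKO-Ras arrays were all above the WT arrays, and Rb1KO overlapped with WT. It rose in TKO-Ras, by 0.78 (0.41 to 1.14, adjusted p = 0.00466 by limma), while the difference was 0.47 in TKO (adjusted p = 0.0713) and 0.40 in Rb1KO (adjusted p = 0.11). Without WT replicate 3 the TKO difference was 0.57 and passed (adjusted p = 0.0431). The other Cbx7 probe sets were at background on every array, so that a further call in TKO-Ras (0.48) compares values within the background.

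The ubiquitin ligase core of PRC1 gave small differences. Bmi1, which activates the ligase, read 10.97, 10.69 and 11.32 in WT and 11.21, 11.01 and 11.07 in TKO, so that the groups overlapped. Its log2 difference from WT was -0.14 in Rb1KO (-0.45 to 0.17), 0.10 in TKO (-0.21 to 0.42) and 0.05 in TKO-Ras (-0.27 to 0.36). Its 2 probe sets gave 0.10 and 0.12 in TKO, and in TKO-Ras they differed in sign, at 0.05 and -0.21. Rnf2, a catalytic subunit, read 10.04, 9.99 and 10.64 in WT and 10.17, 10.37 and 10.13 in TKO, with differences of -0.30 in Rb1KO (-0.64 to 0.03), -0.00 in TKO (-0.34 to 0.33) and -0.17 in TKO-Ras (-0.51 to 0.17). Ring1, its close relative, read 7.27, 7.25 and 7.41 in WT and 7.79, 7.58 and 7.40 in TKO, with a difference of 0.28 in TKO (0.03 to 0.53, adjusted p = 0.113 by limma). Such intervals do not show that the levels were equal.

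Counted together, 4 of the 9 genes were higher and 1 was lower in TKO than in WT, where 23.5% of all genes were called, 13.6% higher and 9.9% lower. Without WT replicate 3 the counts were 5 higher and 0 lower, since Cbx7 passed and Jarid2 did not. The median log2 fold change on all arrays was 0.47 over the 9 and 0.05 over all genes. In Rb1KO against WT, 4 were higher and 0 lower by limma (1 lower at an unadjusted p under 0.05), where 27.9% of genes were called (15.6% higher, 12.3% lower), and the medians were 0.40 and 0.08. In TKO-Ras against WT, 4 were higher and 1 lower, where 33.7% of genes were called (19.4% higher, 14.3% lower), with medians of 0.28 and 0.11. Of the 4 PRC2 genes 3 were higher in each mutant group, and of the 5 PRC1 genes 1 was, which was Cbx2 in Rb1KO and TKO and Cbx7 in TKO-Ras. Of the 25 probe sets, 18 were above background on every array and 5 on none, and the latter belong to Eed, Rnf2, Cbx2 and Cbx7.

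**Figure D2:**
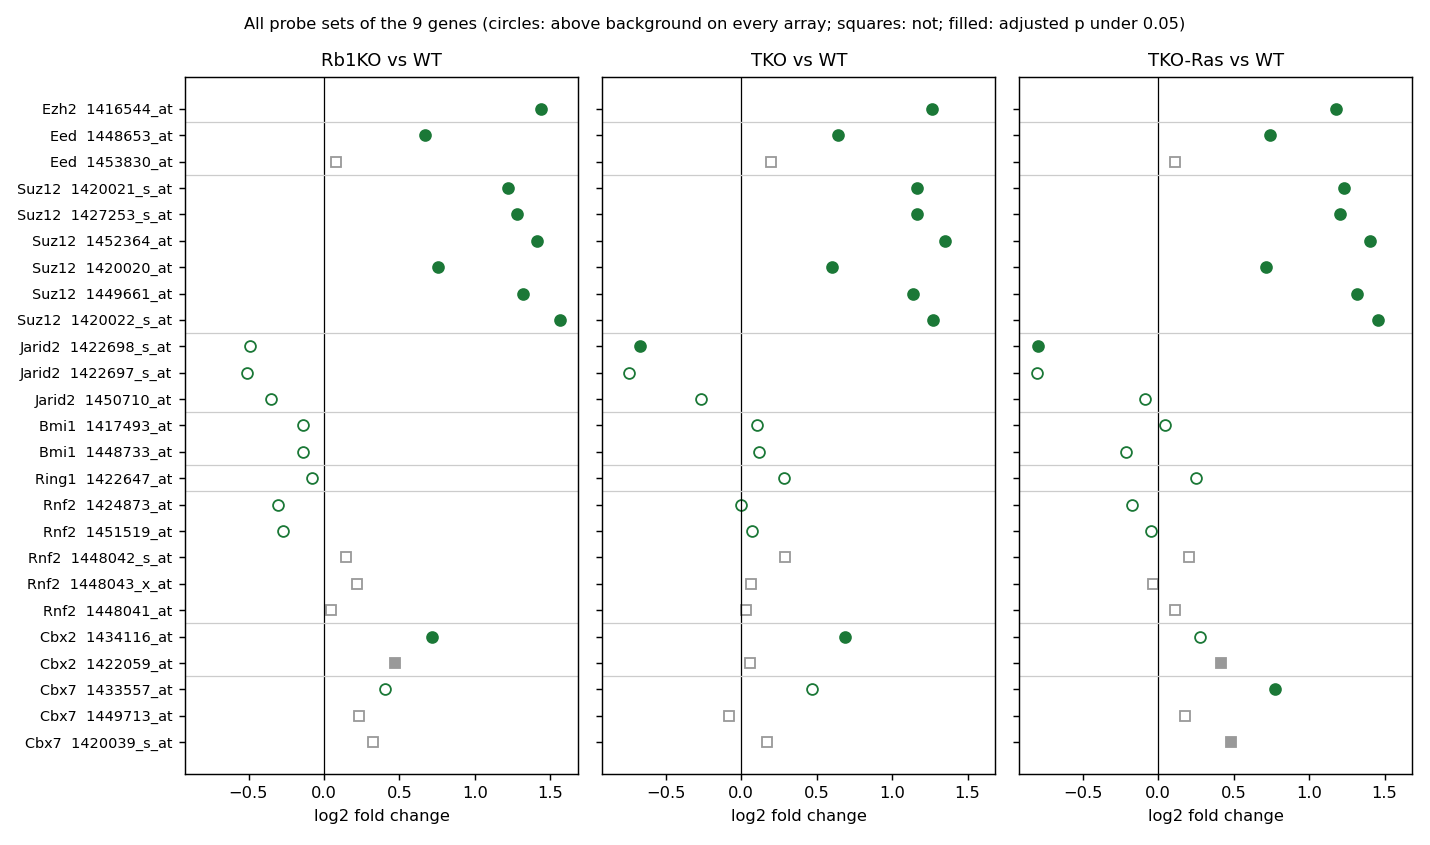
Log2 fold change against WT (horizontal axis) of all 25 probe sets of the 9 genes (rows), with circles for probe sets above background on all arrays, squares for the others, and symbols filled where limma called the probe set. All 6 Suz12 probe sets lie on the right in each panel, from 0.60 to 1.57, and all 3 Jarid2 probe sets on the left.

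The comparison of TKO with Rb1KO asks whether the subunits differed between the cells labelled with deletion of all 3 pocket proteins and those labelled with deletion of Rb1. On these arrays Rbl1 was lower in TKO than in Rb1KO by at least 12.2-fold, and Rb1 did not pass. Rbl2 was higher in TKO by 1.27 (adjusted p = 0.00411 by limma). It was at background in Rb1KO, and its TKO mean of 5.45 was close above background, so that most of this difference lies below background. By limma 0 of the 9 genes passed, and 1, Ring1, had an unadjusted p under 0.05, where 9.55% of all genes were called (5.92% higher, 3.63% lower). The contrasts without moderation of the variance also called 0. Ezh2 differed by -0.17 (-0.45 to 0.10), Suz12 by -0.05 (-0.36 to 0.26) and Eed by -0.03 (-0.40 to 0.34), so that a further rise of more than 0.34 lies outside each interval. Ring1 was higher in TKO by 0.36 (0.11 to 0.61, adjusted p = 0.088 by limma). The TKO and Rb1KO arrays did not overlap in Ring1, Bmi1 (0.24) and Rnf2 (0.30), each with TKO above, and a count of 3 of 9 is near the background, since 34.3% of all genes did not overlap between these groups (16.3% with TKO above).

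Adding RasG12D to the TKO deletions gave 0 calls among the 9 by limma and also by the contrasts without moderation, where 7.36% of all genes were called (3.19% higher, 4.17% lower). Cbx2 had the only unadjusted p under 0.05, with a difference of -0.41 (-0.80 to -0.02, adjusted p = 0.231 by limma). Cbx7 was higher by 0.31 (-0.06 to 0.67), Ezh2 differed by -0.09 (-0.36 to 0.19), Suz12 by 0.07 (-0.25 to 0.38) and Eed by 0.10 (-0.27 to 0.47).

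**Figure D3:**
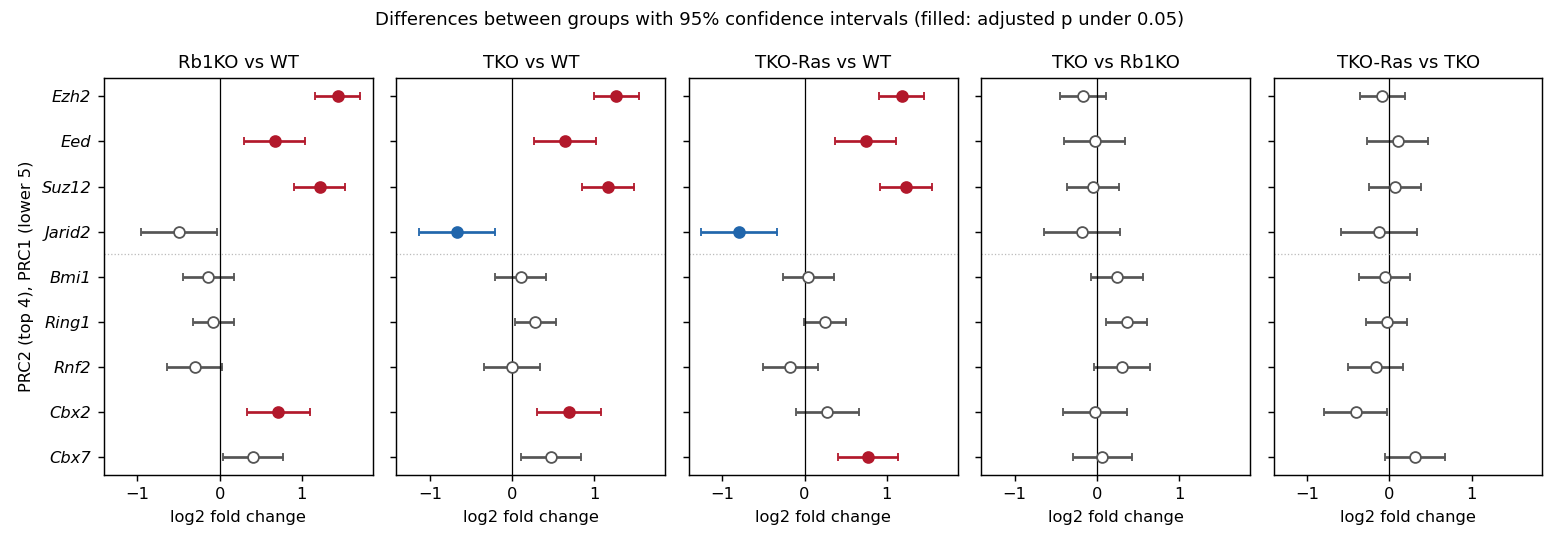
Log2 fold change (horizontal axis) with its 95% confidence interval for the 9 genes (rows, PRC2 above and PRC1 below the dotted line) in 5 comparisons, where a filled point is one that limma called. Ezh2, Eed and Suz12 lie right of 0 in the 3 comparisons with WT, at 0.64 to 1.44, and no point is filled in TKO against Rb1KO or TKO-Ras against TKO.

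The order of the group means separated the genes. Ezh2 and Cbx2 ran Rb1KO, TKO, TKO-Ras, WT from high to low, and Eed and Suz12 ran TKO-Ras, Rb1KO, TKO, WT. For Ezh2, Suz12 and Eed the arrays of neighbouring mutant groups overlapped, and only WT stood clear below them. Cbx7 ran TKO-Ras, TKO, Rb1KO, WT, and Jarid2 ran WT, Rb1KO, TKO, TKO-Ras. Cbx7 in TKO-Ras stood clear of TKO, and Jarid2 in WT stood clear of Rb1KO, while their other neighbours and all neighbours of Cbx2 overlapped. Bmi1 and Ring1 were highest in TKO and lowest in Rb1KO, with overlap between all neighbours except TKO-Ras and WT for Ring1. Rnf2 ran WT, TKO, TKO-Ras, Rb1KO, and of the neighbours in this order only WT and TKO overlapped. The group means spanned 1.44 log2 units for Ezh2 and 1.23 for Suz12, and less than 1 for the other 7.

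Over the 12 arrays, the genes whose centred profile was closest to that of Ezh2 among 12740 candidates were Rbmx2, Alyref, Sgo1, Zfp930 and Poc1a, with a root mean square distance of 0.124 to 0.133 log2 units. For Suz12 they were Poc1a, at 0.0734, then Tipin, Dlgap5, Sgo2a and Sass6, at 0.107 to 0.115. Sgo1 and Sgo2a encode shugoshins, which protect chromosome cohesion, Tipin is a replication fork protein, Dlgap5 a spindle protein, and Poc1a and Sass6 are centriole proteins. Rbmx2, Alyref and Zfp930, at ranks 1, 2 and 4 for Ezh2, are not assigned to such roles here, and a shared role was not tested. Poc1a was on both lists.

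Genes of DNA replication that E2F is known to drive, such as the Mcm helicase genes and Cdc6, were higher in every mutant group, with 15 of 16 called in each. Their median log2 fold change was 1.62 in Rb1KO, 1.62 in TKO and 1.71 in TKO-Ras, so that the rises of Ezh2 and Suz12 were smaller than that median and larger than the median of all genes. Cdc6, the loading factor, rose by 2.96 in Rb1KO and 2.85 in TKO. Ccne1 was the gene that did not pass in TKO, at 0.26. In TKO against Rb1KO 0 of the 16 were called (3 lower at an unadjusted p under 0.05), and in TKO-Ras against TKO 0 were called and 0 had an unadjusted p under 0.05.

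The other subunits of PRC2 were measured for 9 of 9 listed. In TKO 3 rose, in Rb1KO 3 and in TKO-Ras 4, and limma called 0 lower in any of them, also 0 at an unadjusted p under 0.05. Over all genes 13.6%, 15.6% and 19.4% were higher in these comparisons, and 9.9%, 12.3% and 14.3% were lower. Mtf2, which binds DNA and recruits PRC2, rose by 0.82 in TKO (adjusted p = 8.33e-05 by limma), by 0.83 in Rb1KO and by 0.52 in TKO-Ras, and 4 of its 5 probe sets above background rose in TKO. Rbbp4, a histone chaperone that PRC2 shares with other complexes, rose by 0.39 in TKO, 0.50 in Rb1KO and 0.65 in TKO-Ras. But 1 of its 4 probe sets ran the other way in each, at -0.91 in TKO, -0.28 in Rb1KO and -0.20 in TKO-Ras. Its relative Rbbp7 rose in Rb1KO by 0.29 (adjusted p = 0.022) and did not pass without WT replicate 3 (adjusted p = 0.0772). Lcor, an accessory subunit, rose by 0.73 in TKO-Ras (adjusted p = 0.0476). Epop was the remaining call in TKO, and it was at background in both groups. Ezh1, the second methyltransferase of PRC2, passed in none of the comparisons, with -0.09 in TKO, -0.17 in Rb1KO and -0.37 in TKO-Ras against WT. The list median was 0.12 in TKO, 0.04 in Rb1KO and 0.19 in TKO-Ras.

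Of 20 other PRC1 subunits 18 were measured, and in TKO 3 rose and 3 fell, against 13.6% and 9.9% of all genes. Auts2, which turns some PRC1 forms away from repression, fell by 1.83 (adjusted p = 0.0105 by limma), and its WT arrays were far apart, at 8.09, 7.41 and 9.71, against 6.31, 6.78 and 6.62 in TKO. Without WT replicate 3 its difference was -1.18 and still passed (adjusted p = 0.00124 by limma). Of its 3 probe sets above background, which ran from -2.43 to -0.13 in TKO, 2 were called lower. L3mbtl2, of a PRC1 form that also holds a member of the E2F family, rose by 0.88 in TKO (adjusted p = 0.00629) and by 0.65 in Rb1KO (adjusted p = 0.0267, and 0.0617 without WT replicate 3). Cbx8, another chromodomain subunit, rose by 0.59 in TKO and 0.51 in Rb1KO, and the polyhomeotic gene Phc3 fell by 0.44 and 0.69. Pcgf3 fell by 0.74 in TKO and 0.64 in Rb1KO, but its other probe set above background gave 0.08 and 0.21. In Rb1KO 4 rose and 3 fell (15.6% and 12.3% of all genes), and in TKO-Ras 5 rose and 3 fell (19.4% and 14.3%). In TKO against Rb1KO limma called 0 of the 18, and 4 had an unadjusted p under 0.05.

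The Ras allele was accompanied by higher levels of 3 other PRC1 subunits in the TKO background, where 3.19% of all genes were called higher. Pcgf5, a partner of the ligase in forms that lack Cbx subunits, read 9.90, 9.57 and 10.04 in TKO and 11.37, 11.54 and 11.18 in TKO-Ras. The groups did not overlap, and it rose by 1.53 (adjusted p = 0.000128 by limma), with its other probe set above background at 1.21. Phc2, a polyhomeotic gene, read 10.63, 10.46 and 10.58 in TKO and 11.67, 11.43 and 11.70 in TKO-Ras, and both of its probe sets rose, by 1.04 and 1.14 (adjusted p = 0.0138 for the first). Scmh1, a further partner of the polyhomeotic proteins, read 8.34, 8.35 and 8.46 in TKO and 9.18, 9.05 and 9.08 in TKO-Ras, a rise of 0.72 (adjusted p = 0.00795). The other 15 subunits did not pass, and the list median was -0.04.

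Among 15 genes that oppose Polycomb, 1 rose and 2 fell in TKO, a share of 20% called that is below the 23.5% of all genes. Kdm6b, a demethylase that removes the mark of PRC2, read 9.94, 9.81 and 9.84 in WT, 8.79, 8.94 and 8.47 in Rb1KO, 9.08, 9.40 and 9.37 in TKO, and 8.71, 8.94 and 8.71 in TKO-Ras. Every mutant array was below WT, and Rb1KO below TKO. It fell by 1.12 in Rb1KO (adjusted p = 0.000135 by limma), by 0.58 in TKO (adjusted p = 0.0112) and by 1.07 in TKO-Ras (adjusted p = 0.000146), and its 3 probe sets fell together in Rb1KO and TKO. In TKO against Rb1KO it was the single call of the list, higher by 0.55 (adjusted p = 0.032). Kmt2c, a methyltransferase of active enhancers, fell by 0.72 in TKO and did not pass without WT replicate 3 (-0.52, adjusted p = 0.0503 by limma). Of its 4 probe sets, which ran from -0.72 to -0.16 in TKO, only 1 was called. Smarcb1, of the SWI/SNF remodelling complex, rose by 0.52, and in Rb1KO Bap1, which removes the ubiquitin that PRC1 adds, rose by 0.40.

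**Figure D4:**
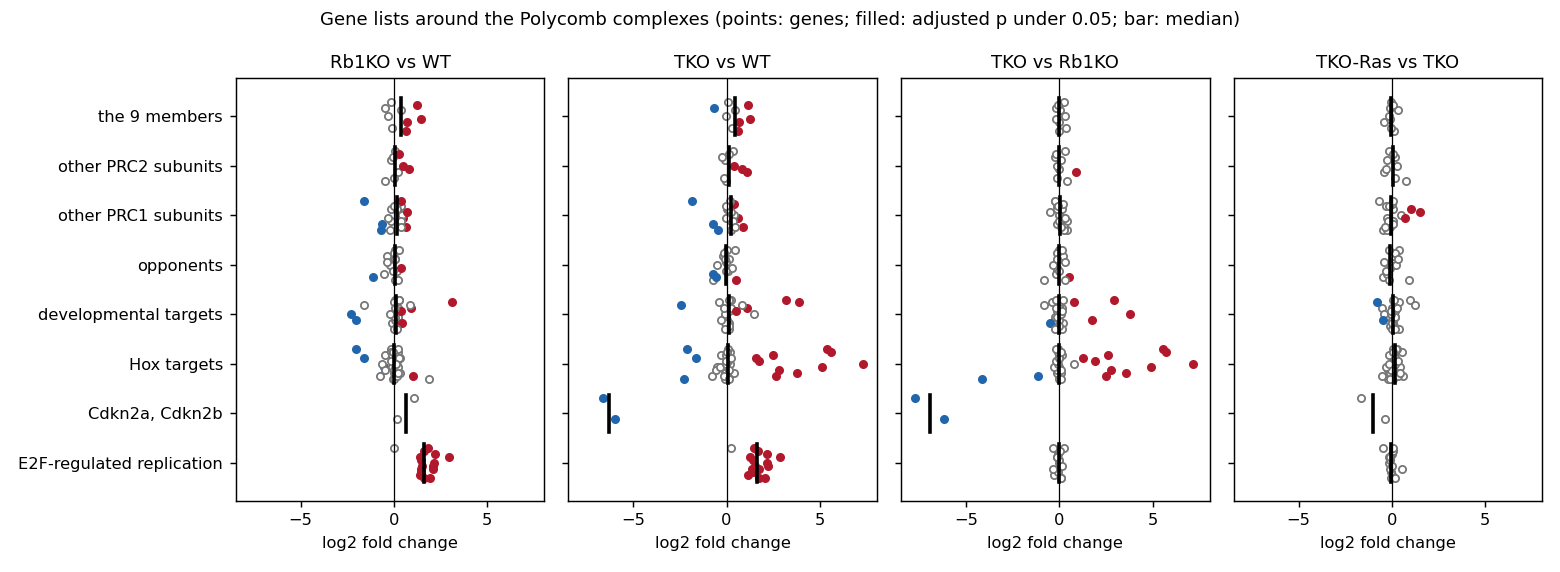
Log2 fold change (horizontal axis) of each gene in the lists around the Polycomb complexes (rows), where filled points were called by limma, red higher and blue lower, and a bar at the list median, in 4 comparisons. Of the replication genes 15 of 16 are filled on the right in both comparisons with WT, and of the Hox genes 10 are filled on the right in TKO against WT and 1 in Rb1KO against WT.

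Several classical targets of Polycomb differed between Rb1KO and TKO, where none of the 9 subunits passed by limma. Cdkn2a, which encodes the cell cycle inhibitors p16 and Arf, read 12.08, 11.20 and 12.98 in WT and 12.99, 13.32 and 13.25 in Rb1KO. It read 6.20, 6.10 and 4.07 in TKO and 4.30, 3.92 and 3.27 in TKO-Ras, where every array was at background. It fell by 7.73 on the log2 scale in TKO against Rb1KO (adjusted p = 7.7e-06 by limma), was at least 124-fold lower in TKO-Ras than in WT, and in Rb1KO was 1.10 above WT without passing (adjusted p = 0.19). The neighbouring inhibitor gene Cdkn2b read 10.49, 10.58 and 10.57 in WT, 11.25, 9.95 and 10.96 in Rb1KO, and at most 4.79 in TKO and TKO-Ras, at least 42.6-fold below WT. The arrays of Rb1KO, where both inhibitor genes were high, and of TKO, where both were near or at background, overlapped in Ezh2, Suz12 and Eed. They did not overlap in Bmi1, Ring1 and Rnf2, each higher in TKO (by 0.24, 0.36 and 0.30) without passing by limma. Such a lack of overlap was seen in 34.3% of all genes. Whether the subunit levels bear on the inhibitor genes was not tested. The labels and methods do not say whether the locus is present in the TKO and TKO-Ras cells, and these arrays do not measure it.

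Of 39 Hox genes 33 were measured, and 20 were above background in some group. In TKO 10 were higher and 3 lower than in WT, where 13.6% and 9.9% of all genes were called in these directions. Against Rb1KO 10 were higher and 2 lower in TKO (5.92% and 3.63% of all genes), and in Rb1KO 1 was higher and 3 lower than in WT (15.6% and 12.3%). The genes that rose in TKO were Hoxa9, Hoxa10, Hoxa11, Hoxa13 and Hoxd8 to Hoxd13. Except for Hoxd8, these are posterior genes of the Hoxa and Hoxd clusters. Posterior genes of the other clusters did not follow. Hoxb9 (mean of 5.30 in WT and 5.16 in TKO) and Hoxc9 (6.56 and 6.80) were not called, and Hoxb13, Hoxc10 and Hoxc13 were at background in both groups. Hoxd13 read 3.94, 3.97 and 3.81 in WT, 3.91, 3.78 and 4.45 in Rb1KO, 11.31, 11.20 and 11.16 in TKO, and 10.95, 11.31 and 10.99 in TKO-Ras. At this probe set TKO exceeded both WT and Rb1KO at least 68.1-fold. The other Hoxd13 probe set rose less, by 3.28 log2 units against WT and 2.74 against Rb1KO. At the probe sets used, TKO also exceeded WT at least 26.6-fold in Hoxa9, 18.5-fold in Hoxa10 and 11.8-fold in Hoxd10. Hoxd8 was higher by 3.79 log2 units. The other probe set of Hoxa9 rose by 1.18 and that of Hoxd8 by 2.72. Posterior Hox genes are active toward the limb and tail ends of the embryo, and which part of the embryo each group was grown from is not given. Position of origin and genotype cannot be told apart here.

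The Hox genes called lower than in WT on all arrays were anterior ones, namely Hoxa2, Hoxb2 and Hoxb4 in TKO and Hoxa3, Hoxb2 and Hoxb4 in Rb1KO. The Rb1KO and WT arrays overlapped in Hoxa3 and Hoxb4. Hoxa2 ran the other way in Rb1KO, at 1.87 above WT without passing (adjusted p = 0.0581 by limma). Without WT replicate 3 that difference was 0.99. In TKO Hoxa2 was at background on every array and 4.16 lower than in Rb1KO (adjusted p = 0.00219 by limma), a bound of at least 9.87-fold. Hoxb2 read 7.58, 8.92 and 5.32 in WT and 5.24, 5.24 and 5.20 in Rb1KO, and it fell by 2.05 in Rb1KO and fell by 2.11 in TKO (adjusted p = 0.0369 and 0.0365 by limma). The Rb1KO and TKO arrays, at 5.10 to 5.24, were close to background. WT replicate 3 was close to them, and without it the differences were -3.03 and -3.09. Without that array 7 Hox genes in place of 3 were lower in both Rb1KO and TKO, while the numbers of higher ones stayed at 1 and 10. The added genes are not all named here and need not be anterior. Hoxa5, from the middle of its cluster, read 7.90, 8.62 and 6.40 in WT, 6.84 to 6.95 in Rb1KO and 6.78 to 7.01 in TKO. Hoxb9 was the single Hox gene higher in Rb1KO, by 1.02 (adjusted p = 0.000291). In TKO-Ras against TKO limma called 0 of the 33, and 2 had an unadjusted p under 0.05.

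Of 30 other developmental targets 26 were measured, and only 13 were above background in some group, which limits how many could be called. In TKO 4 were higher and 1 lower, and in Rb1KO 4 were higher and 2 lower. These are 19.2% and 23.1% of the list, below the 23.5% and 27.9% of all genes called. Lhx2, a homeobox gene, was at background in WT and at least 3.26-fold higher in TKO and 1.91-fold higher in Rb1KO. Bmp2, a secreted growth factor, was also at background in WT and exceeded it at least 4.43-fold in TKO. Gata6 read 8.15, 8.49 and 5.43 in WT, 4.88, 5.42 and 4.84 in Rb1KO, and 8.82, 8.78 and 8.86 in TKO, so that Rb1KO lay below the other groups and close to WT replicate 3. It fell by 2.31 in Rb1KO (adjusted p = 0.0158 by limma), a value of -3.27 without WT replicate 3 (adjusted p = 3.62e-07). Tbx15, a limb and trunk factor, fell by 2.05 in Rb1KO (adjusted p = 1.05e-06), and its level in TKO-Ras was lower than in TKO by 0.50 (adjusted p = 0.0311). The neural crest gene Pax3 fell by 2.41 in TKO (adjusted p = 0.0175 by limma), a value of -1.51 without WT replicate 3. Its TKO arrays, at 5.08 to 5.15, were close to background.

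**Figure D5:**
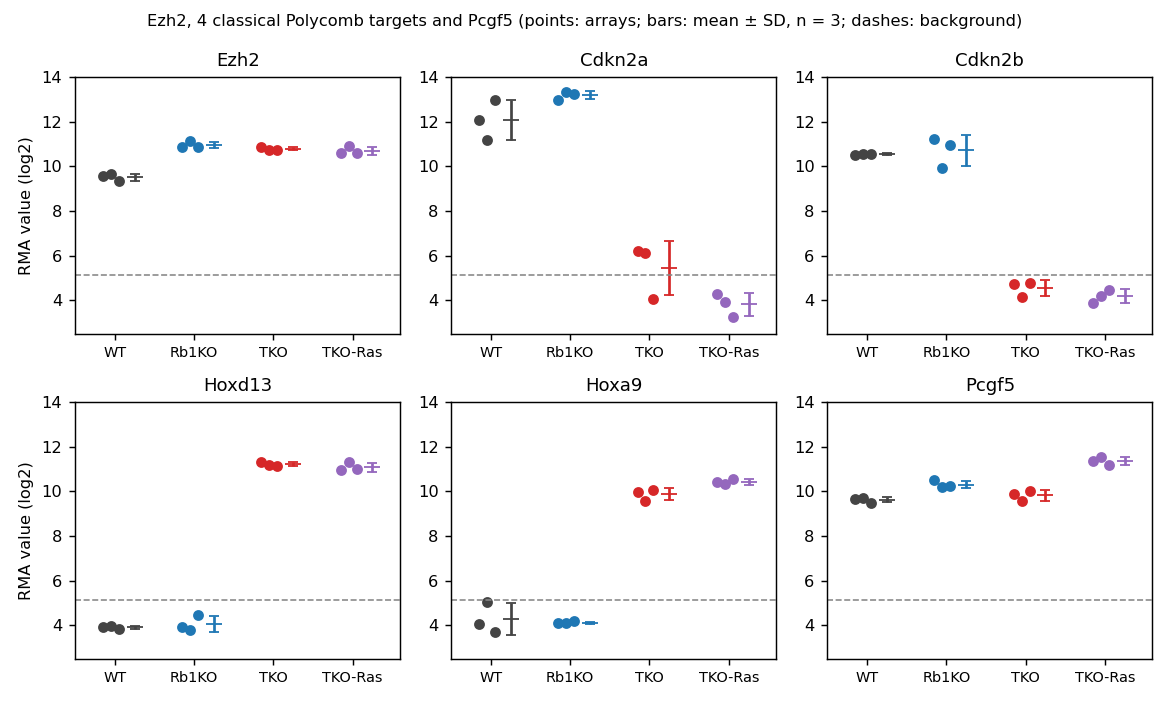
Deposited log2 level (vertical axis) of Ezh2, of 4 classical Polycomb targets and of the PRC1 gene Pcgf5 on each array of the 4 groups, with the mean ± SD of 3 arrays and background (5.13) drawn as dashes. Ezh2 overlaps between Rb1KO and TKO, while Cdkn2a reads 12.99 to 13.32 in Rb1KO against 4.07 to 6.20 in TKO and Hoxd13 reads 3.78 to 4.45 against 11.16 to 11.31.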

How the data were processed

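Total RNA of 12 MEF samples (100 ng each) was labelled and hybridised to Affymetrix MOE430 2.0 arrays. The authors normalised and summarised the scans by RMA in Partek Genomics Suite 6.5, and the deposited values are 1 log2 number per probe set and array. No source names the scale, and log2 was inferred from the range of 2.18 to 14.92. All sample columns were used. Of 45101 probe sets 64 controls were left out, and 34945 carry 1 symbol.

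The 9 genes and all gene lists were chosen with earlier results of these data known. The 4 groups entered 1 linear model (R 4.3.3, limma 3.58.1, functions lmFit and eBayes, 8 residual degrees of freedom) with 5 contrasts, 2-sided, with Benjamini-Hochberg adjustment over 45037 probe sets and a threshold of 0.05. Every adjusted p is from this fit. Background was set from 44 probe sets of olfactory receptors (their 95th percentile), and a fold against a group wholly at background is a bound against that level. Named genes are the 9, Cdkn2a, Cdkn2b, the pocket proteins, the 5 closest profiles of members spanning 1 log2 unit, and up to 5 called genes with the largest change per list and comparison. Ezh1, Hoxa5, Hoxa13, Hoxb13, Hoxc9, Hoxc10, Hoxc13, Cdc6, Ccne1, Thy1, Epop and other genes given to complete a count were named after their values were seen. Share of calls is given for 1 probe set per gene. The number of arrays limits the precision.

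Alternatives were contrasts without moderation as in the methods, eBayes with a trend and robust settings, array weights (statmod 1.5.0), a replicate block, only the groups compared, median centring, cyclic loess, only probe sets above background on 3 arrays or more, the mean of all probe sets, only probe sets without a suffix, other background percentiles, and each replicate left out. List counts without WT replicate 3 were added after seeing the data. Scripts were tested on simulated data. Files were read with the R package data.table and with pandas 2.3.3, and figures were drawn with matplotlib 3.10.9 in Python 3.11.15. Marker levels of fibroblasts and of other cell types (endothelium, leukocyte, epithelium, neural, muscle, adipocyte and cartilage) were summed per array on the linear scale and given as log2, and 4 of 5 endothelial markers were at background in each group.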

Additional observations from a re-analysis of the deposited data

How the results depend on the processing

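The number of arrays, 3 per group, limits the precision. Ezh2 and Suz12 passed against WT in all 16 alternatives of each of the 3 comparisons, with log2 fold changes in TKO-Ras of 1.07 to 1.24 and 1.06 to 1.40. Eed passed in 14 of 16 for Rb1KO, 13 for TKO and 16 for TKO-Ras, Cbx2 in 15 for Rb1KO and 14 for TKO, Cbx7 in 16 for TKO-Ras, and Jarid2 in 7 for TKO and 12 for TKO-Ras.

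With the groups compared alone in the fit, 3 members were called in TKO against WT in place of 5 (Eed at an adjusted p of 0.0954 and Jarid2 at 0.12), and leaving out 1 array gave 3 to 5. The count of lower members in TKO against WT was 0 in place of 1 with contrasts without moderation, only the groups compared, median centring, the mean of all probe sets and only probe sets without a suffix, and ran from 0 to 1 when 1 array was left out (0 without TKO replicate 1, 2 or 3 or WT replicate 3). In TKO-Ras against WT it was 0 with only the groups compared, the mean of all probe sets and no suffix, and 0 to 1 when 1 array was left out (0 without TKO-Ras replicate 2). Array weights called 1 member in TKO against Rb1KO (Ring1, 0.39, adjusted p = 0.0298 by limma), higher in TKO, and the mean of all probe sets called 1 in TKO-Ras against TKO (Cbx7, 0.29, adjusted p = 0.0399), higher in TKO-Ras. Calls were also gained against WT by Ring1 in TKO (adjusted p = 0.0276 with array weights, 0.045 without TKO replicate 3), by Cbx7 in Rb1KO (0.0334 with array weights, 0.00873 with the mean of all probe sets, 0.0261 without Rb1KO replicate 2) and in TKO (0.0422 with median centring, 0.0431 without WT replicate 3), and by Cbx2 in TKO-Ras (0.0273 with the mean of all probe sets). Eed was lost without Rb1KO replicate 2 in Rb1KO (0.058) and without TKO replicate 1 (0.0685) or 2 (0.0723) in TKO, and Cbx2 was lost without Rb1KO replicate 1 (Rb1KO) and without TKO replicate 3 or WT replicate 1 (TKO). The causes were not tested.

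Signs that turned belong to differences that did not pass or lay near 0. With array weights Rnf2 was 0.17 in TKO against WT, and Eed 0.0215 and Cbx7 -0.0175 in TKO against Rb1KO. With median centring Rnf2 was 0.0503 in TKO against WT, and Eed 0.0106 and Cbx2 0.0133 in TKO against Rb1KO. With cyclic loess Bmi1 was -0.0118 in TKO and -0.0751 in TKO-Ras against WT. With the mean of all probe sets Rnf2 was 0.0921 in TKO and 0.0122 in TKO-Ras and Bmi1 -0.0821 in TKO-Ras against WT, and Eed was 0.0431 and Cbx7 -0.13 in TKO against Rb1KO. With probe sets without a suffix Jarid2 was 0.0857 in TKO against Rb1KO and 0.17 in TKO-Ras against TKO. Leaving out 1 array gave, in TKO against Rb1KO, -0.13 to 0.0281 for Suz12, -0.0699 to 0.042 for Eed, -0.15 to 0.0944 for Cbx2 and -0.11 to 0.17 for Cbx7. In TKO against WT it gave -0.12 to 0.21 for Rnf2 and -0.0468 to 0.27 for Bmi1, and in Rb1KO against WT -0.29 to 0.0257 for Bmi1. In TKO-Ras against WT it gave -0.10 to 0.21 for Bmi1 and -0.29 to 0.0368 for Rnf2, and in TKO-Ras against TKO -0.0129 to 0.14 for Suz12, -0.22 to 0.0317 for Jarid2, -0.12 to 0.0076 for Bmi1 and -0.13 to 0.0648 for Ring1.

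Replicate numbers are shared between the groups. Deviations of samples with the same number correlated weakly and with either sign (r of -0.24 to 0.24 over 15 pairs, over 0.1 in 7). For replicate 3, r was 0.14 to 0.24 among WT, Rb1KO and TKO. It was -0.03 for TKO-Ras with TKO and -0.15 for TKO-Ras with WT. A replicate block changed no call among the 9 members (Ezh2 1.27 in TKO against WT). With the replicate block 8819 probe sets were called in TKO against WT in place of 8785, and fewer in the others: 10107 in place of 10183 in Rb1KO against WT, 3146 in place of 3231 in TKO against Rb1KO, 2452 in place of 2553 in TKO-Ras against TKO and 12490 in place of 12576 in TKO-Ras against WT. The background level was 5.82 with the 99th percentile and 3.84 with the median in place of 5.13. With the 99th percentile the lower bounds fell, for Hoxd13 in TKO from 68.1 to 42.4, for Cdkn2a in TKO-Ras from 124 to 77.1, for Cdkn2b from 42.6 to 26.6, for Hoxa9 from 26.6 to 16.6, for Hoxa10 from 18.5 to 11.5, for Hoxd10 from 11.8 to 7.33, for Bmp2 from 4.43 to 2.76 and for Lhx2 from 3.26 to 2.03 in TKO and from 1.91 to 1.19 in Rb1KO. With the median Cdkn2a, Cdkn2b, Hoxd13, Hoxa9, Hoxa10 and Bmp2 were no longer at background on every array of the dim group, and the bounds were 28.8 for Hoxd10, and 7.97 and 4.68 for Lhx2 in TKO and Rb1KO.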

Other observations

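Marker sums of other cell types are linear sums, in which 1 abundant gene can outweigh the rest. The summed log2 level of 5 epithelial markers was 8.20 to 9.46 in WT, 8.57 to 8.99 in Rb1KO, 8.76 to 9.47 in TKO and 10.39 to 11.05 in TKO-Ras, with 2 of 5 (Cdh1 and Krt18) at background in each group. Krt19 was the brightest of the 5 in each group, with means of 7.38 in WT and 10.48 in TKO-Ras, while Epcam was at 6.98 and 6.54 and Krt8 at 5.23 and 5.78. Leukocyte markers (3 to 4 of 6 at background) summed to 7.73 to 8.12 in WT, 8.16 to 8.28 in Rb1KO, 8.54 to 8.72 in TKO and 8.84 to 9.13 in TKO-Ras. Neural markers summed to 10.53 to 10.89 in WT and 9.24 to 10.59 in the mutant groups, with Map2 at a mean of 10.39 in WT and at background in TKO and TKO-Ras, and Sox2 at background in WT and at means of 8.95 in TKO and 9.70 in TKO-Ras. Cartilage markers summed to 11.39 to 12.10 in WT and 8.89 to 10.46 in the mutant groups. Muscle markers reached 7.97 to 10.07 in WT and 7.93 to 9.01 in the mutant groups. Adipocyte markers summed to 8.92 to 10.23 in WT, 7.94 to 8.34 in Rb1KO, 9.72 to 11.12 in TKO and 7.76 to 8.25 in TKO-Ras. Their part in the levels of the Polycomb genes was not tested.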
